A study of Mus musculus with 12 samples.

Results

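The CXC and CX3C chemokines are small secreted proteins named for the spacing of their first conserved cysteines. This account follows 10 of the 21743 genes in the count table, chosen by name and family: Cxcl1, Cxcl2, Cxcl3, Cxcl5, Cxcl9, Cxcl10, Cxcl12, Cxcl14, Cxcl16 and Cx3cl1. All 10 were present in the table. RNA of single cells was counted by Drop-seq: droplets pair 1 cell with 1 barcoded bead, and unique molecular identifiers (UMIs) on the bead let each RNA molecule be counted once. The donors were 2 mice, on a background mixed from C57BL/6 and 129/Sv, that carried MMTV-Cre and floxed Brca1 alleles (Brca1 flox/flox). Mouse 1 gave mammary glands of the fourth pair (MG1, 2 libraries) and a tumor (MT1, 5 libraries), and mouse 2 gave MG2 (2 libraries) and MT2 (3 libraries). The MMTV promoter drives Cre in the mammary epithelium, so all 4 groups came from mice with the floxed alleles and Cre, and no group from a mouse without them. Stromal cells are not a target of this Cre, and recombination was not checked cell by cell. Drop-seq reads the 3′ end of a transcript, away from the floxed part of Brca1, so Brca1 counts do not check the deletion. The labels give no ages. The study's methods describe its gland donors in general as young adult females, either virgin or in mid-pregnancy, and do not give the state of each of these mice. The glands here were matched to tumors of the same mice, so that general description may not hold for them.

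The 10 genes fall into several kinds. Cxcl1, Cxcl2, Cxcl3 and Cxcl5 carry the ELR motif before the first cysteines and draw neutrophils through the receptor Cxcr2; their genes are classical NF-kB targets with short-lived, AU-rich mRNAs. Cxcl9 and Cxcl10 are induced by interferon and attract T cells and NK cells through Cxcr3. Cxcl12 binds Cxcr4 and the scavenging receptor Ackr3 and is a typical product of stromal fibroblasts, while Cxcl14 is made by many epithelia. Cxcl16 and Cx3cl1 are membrane-anchored on the cell that makes them, are released by the proteases Adam10 and Adam17, and bind Cxcr6 and Cx3cr1.

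Each library held 105 to 4874 cells and 693333 to 14841414 UMIs, with a median of 1784 to 4842 UMIs per cell and a median mitochondrial share of 4.48% to 11.5%. Libraries shared 0 to 7 cell barcodes with another library. The tissue had been depleted of blood and endothelial cells and digested with collagenase and hyaluronidase at 37 °C before capture, so the shares of stromal and blood cells are not those of the tissue. Levels are counts scaled to a library of 1000000 UMIs (CPM). A molecule gives 1 UMI whatever the length of its transcript, so levels of different genes are set side by side without a correction for length. Other differences between genes, in capture or alignment, were not tested. Libraries of a group came from 1 tissue of 1 mouse, so the p-values below measure only the spread between libraries, which may be technical.

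Cells were sorted into 12 classes by clustering without any chemokine gene, and named from marker lists. The glands held luminal hormone-sensing-like cells (33.6% of MG1 and 40.6% of MG2), luminal secretory-like cells (34.4% and 38.9%), basal-like cells (12.6% and 9.12%) and fibroblast-like cells (14.9% and 5.87%). MT1 was made up of 3631 Sfrp1-Igfbp5 epithelial-like cells, 2430 Tnfrsf11b-Ccl20 epithelial-like cells and 1361 mesenchymal-like cells, with 133 fibroblast-like and 59 endothelial-like cells. MT2 was made up of 6000 Grem1-Ptgs2 cells and 3840 cycling cells, with 286 fibroblast-like, 133 macrophage-like and 31 endothelial-like cells. The Grem1-Ptgs2 cells had a summed level of 715 CPM for the 9 epithelial markers and 8082 CPM for the mesenchymal markers. They were therefore called by their leading genes and given no cell type name. In a finer clustering (resolution 1.0), a cluster of 3646 MT2 cells was led by Fn1, Ptgs2 and Nrep. Another, of 2532 MT2 cells, was led by Lce1g, Tcp11l1 and Ggct. The Grem1-Ptgs2 class is treated below as 1 source. Pooled, the macrophage-like cells carried all 9 macrophage markers, at a summed 9471 CPM. They were not uniform: in a sub-cluster with 40 of these MT2 cells, led by Ctsk, Ckb and Atp6v0d2, 6 of the 9 were raised. In the other sub-clusters of the class all 9 were raised.

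The ELR genes and the interferon-induced pair lie in 2 groups on chromosome 5 (GRCm38.p6). Cxcl5 (90759360 to 90761624), Cxcl3 (90786103 to 90789600), Cxcl1 (90891241 to 90893115) and Cxcl2 (90903871 to 90905938) are on the plus strand in that order, with 24.5, 102 and 10.8 kb between neighbours. Cxcl9 (92321347 to 92328079) and Cxcl10 (92346638 to 92348889) follow 1415 kb further on, on the minus strand, 18.6 kb apart. Cxcl12 is on chromosome 6 (117168535 to 117181367), Cxcl14 on chromosome 13 (56288643 to 56296551), Cxcl16 on chromosome 11 (70453983 to 70459984) and Cx3cl1 on chromosome 8 (94772009 to 94782427). For each of the 10 genes, 0 of the 451 overlapping 50-base windows in the last 500 bases of the transcript were shared with another gene, so the near relatives Cxcl1, Cxcl2 and Cxcl3 could be told apart at the end that Drop-seq reads.

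The 250 bases before the RefSeq start of 4 of the genes are shown because they hold the sequence elements through which NF-kB and interferon are known to act on this family. They are written 5′ to 3′ on the gene's strand in GRCm38.p6, with matches to the kappaB consensus and to the interferon-stimulated response element (ISRE) core in capitals.
Cxcl1, chr5:90890995-90891244, plus strand: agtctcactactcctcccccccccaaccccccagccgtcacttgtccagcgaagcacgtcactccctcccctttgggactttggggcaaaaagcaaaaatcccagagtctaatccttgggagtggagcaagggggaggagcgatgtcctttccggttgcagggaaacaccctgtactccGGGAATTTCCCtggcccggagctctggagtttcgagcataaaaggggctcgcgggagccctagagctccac
Cxcl2, chr5:90903649-90903898, plus strand: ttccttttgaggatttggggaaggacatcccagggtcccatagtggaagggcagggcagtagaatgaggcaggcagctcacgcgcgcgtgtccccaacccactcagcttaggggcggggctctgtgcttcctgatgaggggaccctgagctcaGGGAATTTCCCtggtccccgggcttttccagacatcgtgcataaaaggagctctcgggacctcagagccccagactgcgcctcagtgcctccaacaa
Cxcl3, chr5:90785851-90786100, plus strand: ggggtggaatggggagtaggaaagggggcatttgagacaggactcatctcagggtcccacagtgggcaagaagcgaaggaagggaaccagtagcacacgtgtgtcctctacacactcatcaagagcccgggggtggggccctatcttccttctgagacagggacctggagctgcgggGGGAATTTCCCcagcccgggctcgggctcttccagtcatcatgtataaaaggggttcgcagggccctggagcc
Cxcl10, chr5:92348890-92349139, minus strand: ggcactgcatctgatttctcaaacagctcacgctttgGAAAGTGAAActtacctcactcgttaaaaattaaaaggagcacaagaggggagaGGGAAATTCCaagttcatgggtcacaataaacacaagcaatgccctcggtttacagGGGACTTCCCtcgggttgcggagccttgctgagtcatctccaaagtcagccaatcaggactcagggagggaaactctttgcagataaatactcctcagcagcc
The capitals read GGGAATTTCCC in Cxcl1, Cxcl2 and Cxcl3, where 1 kappaB match each ended 60, 86 and 62 bases before the start. Cxcl10 held 2 kappaB matches, the nearer 93 bases before the start, and 1 match to the ISRE core at 203 bases. Both strands were searched over the 8 genes with a RefSeq promoter, which leaves Cxcl5 and Cxcl16 without one. Of 27018 promoters of this length, 3.75% held a kappaB match, 3.04% an ISRE core and 7.18% the interferon-gamma activated site (GAS) core TTCNNNGAA. Cxcl14 held 1 ISRE core and 1 GAS core, and the windows of Cxcl9, Cxcl12 and Cx3cl1 held none of these letters. A match is a description of the letters and not of binding. In the 3′ UTRs, the AUUUA element of short-lived mRNAs occurred 7 times in 595 bases of Cxcl1 (11.8 per kb), a density reached by 0.292% of 18145 genes. It occurred 11 times in Cxcl2 (7.35 per kb), 5 times in Cxcl3 (7.72 per kb) and 5 times in Cxcl5 (4.49 per kb). Those densities were reached by 1.97%, 1.61% and 8.91% of genes. Cxcl12 held 4, Cxcl9 and Cxcl10 3 each, Cxcl16 2, Cx3cl1 1 and Cxcl14 0. The densest of these was Cxcl10, at 3.00 per kb, reached by 22.7% of genes.

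Cxcl1 and Cxcl2 made up most of the family's RNA, 70.0% to 87.8% of it in each library. Levels over all cells of a library are described first; in such sums fewer cells of a type and less RNA per cell cannot be told apart. Cxcl1 gave 250851 UMIs, 49.98% of those of the 10 genes, and Cxcl2 gave 183535 (36.6%), followed by Cxcl5 with 40345 and Cxcl3 with 9266. The other genes gave 702 (Cxcl9) to 4777 (Cxcl12). Together the 10 genes took 0.134% and 0.265% of all UMIs in the MG1 libraries, 0.195% and 0.253% in MG2, 0.274% to 0.321% in MT1 and 0.884% to 1.07% in MT2. The share of the MT2 libraries lay above that of every other library.

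Cxcl1 stood at 691 and 1487 CPM in the MG1 libraries, 765 and 951 in MG2, 2391, 1892, 1855, 1939 and 2022 in MT1 and 4045, 4984 and 5180.3 in MT2. The order was gland, MT1, MT2, with no overlap between these. Cxcl2 stood at 249 and 708 CPM in MG1, 732 and 1071 in MG2, 392, 680.4, 431, 515 and 495 in MT1 and 3629, 3805 and 4175 in MT2. Here MT1 lay within the range of its own gland (means 502 ± 111, SD, n = 5, and 479 ± 325, n = 2), and MT2 stood apart from all other libraries.

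Cxcl3 and Cxcl5 were scarce in the glands and highest in MT2. Cxcl3 measured 1.62 and 5.77 CPM in MG1, 8.59 and 9.46 in MG2, 64.1, 43.1, 28.7, 35.1 and 45.9 in MT1 and 173, 214 and 207 in MT2. Cxcl5 measured 1.62 and 1.44 CPM in MG1, 17.6 and 21.3 in MG2, 39.2, 44.2, 31.8, 39.3 and 33.6 in MT1 and 878, 938 and 964 in MT2. For each of these genes every MT2 library was above every MT1 library, and every MT1 library above every gland library. The gland values of Cxcl3 in MG1 rest on 9 UMIs and those of Cxcl5 on 6.

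The interferon-induced pair had the opposite tumor. Cxcl10 measured 26.2 and 8.65 CPM in MG1, 12.2 and 3.78 in MG2, 167, 156, 209, 151 and 191 in MT1 and 11.4, 5.87 and 6.75 in MT2. Cxcl9 measured 22.6 and 18.8 CPM in MG1, 4.07 and 1.89 in MG2, 22.6, 38.6, 24.95, 33.1 and 27.4 in MT1 and 0.0674, 0.141 and 0.514 in MT2. Cxcl10 was higher in all 5 MT1 libraries than in any other, while Cxcl9 in MT1 adjoined the level of MG1 and was nearly missing from MT2, with 10 UMIs among 42623495.

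Cxcl12 and Cxcl14 were lower in MT1 than in both glands. Cxcl12 measured 63.7 and 67.8 CPM in MG1, 71.6 and 80.9 in MG2, 12.5, 13.1, 10.5, 13.3 and 12.6 in MT1 and 78.3, 82.8 and 95.2 in MT2. MT1 was thus alone in its low level, and MT2 overlapped its gland. Cxcl14 measured 213 and 300.0 CPM in MG1, 277 and 308 in MG2, 10.095, 55.5, 40.4, 29.7 and 28.8 in MT1 and 7.08, 5.58 and 7.48 in MT2. Both tumors lay below both glands, and MT2 below MT1.

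The membrane-anchored chemokines parted the tumors as well. Cxcl16 measured 35.9 and 20.2 CPM in MG1, 32.3 and 37.6 in MG2, 70.7, 63.7, 79.2, 68.4 and 68.0 in MT1 and 18.7, 25.5 and 21.6 in MT2. Cx3cl1 measured 37.5 and 28.9 CPM in MG1, 30.7 and 40.9 in MG2, 43.9, 31.8, 27.5, 30.6 and 33.6 in MT1 and 1.82, 2.26 and 2.57 in MT2. Cxcl16 was highest in MT1, and Cx3cl1 was at one level in the glands and MT1 and far below it in MT2. In the order of levels, neighbouring groups whose libraries overlapped were MG1 and MG2 for Cxcl1, Cxcl10, Cxcl14, Cxcl16 and Cx3cl1, and MG1 and MT1 for Cxcl2, Cxcl9 and Cx3cl1. MT2 overlapped both glands for Cxcl10, MG2 for Cxcl12 and MG1 for Cxcl16, and MG2 overlapped MT1 for Cx3cl1.

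**Figure D1:**
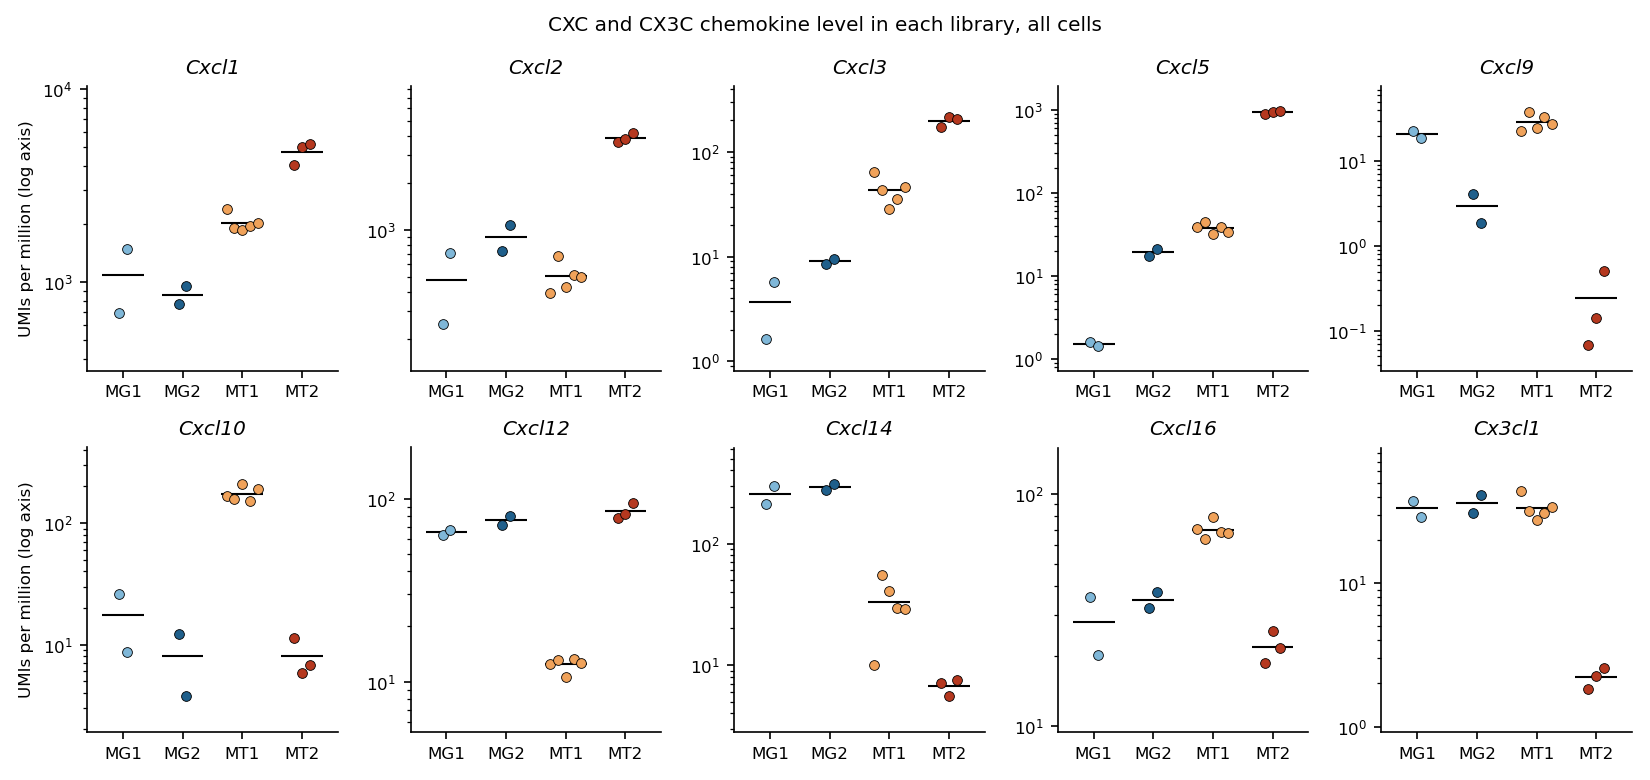
Level of each chemokine in each of the 12 libraries, in CPM on a log axis, by group, with 1 point per library and a line at the group mean. The MT2 libraries stand highest for Cxcl1, Cxcl2, Cxcl3 and Cxcl5, and the MT1 libraries highest for Cxcl10 and Cxcl16.

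The share of cells with at least 1 UMI gave the same picture. With every cell thinned to 1000 UMIs, a step that left out 0 cells, Cxcl1 was found in a mean of 32.3% of MG1 cells, 26.1% of MG2 cells, 50.8% of MT1 cells and 83.1% of MT2 cells, against 58.9%, 40.5%, 66.6% and 93.7% without thinning. Cxcl5 was found in 0.140%, 1.41%, 2.23% and 42.8% of thinned cells (0.687%, 3.04%, 4.0005% and 68.2% unthinned). Most MT2 cells therefore carried Cxcl1 and a large minority Cxcl5 at equal depth. Cxcl10 was found in 1.60%, 0.468%, 9.82% and 0.597% (unthinned 4.08%, 0.90009%, 16.5% and 1.45%), and Cxcl14 in 17.7%, 14.3%, 1.49% and 0.745% (unthinned 29.6%, 21.1%, 2.67% and 1.41%).

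The source of each chemokine was taken as the share of its UMIs that came from each class. These are descriptions of clustered cells and carry no test, and the range over libraries is given instead.

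In the glands, fibroblast-like cells were the strongest makers of Cxcl1. Their pooled level was 3984 CPM in MG1 and 8307 in MG2, with a library range of 3402 to 5583 and 6634 to 9746. Secretory-like cells stood at 498 and 714 CPM, hormone-sensing-like cells at 206 and 358 and basal-like cells at 665 and 287. The fibroblast-like level exceeded the secretory-like level 7.47 to 7.51 times in the MG1 libraries and 9.03 to 14.1 times in MG2. Although 14.9% and 5.87% of the cells, fibroblast-like cells held 60.9% of the Cxcl1 UMIs in MG1 (56.5% to 70.1%) and 40.2% in MG2 (32.5% to 46.7%), with secretory-like cells next at 19.4% and 32.8%. The milk proteins of secretory cells offer a measure of stray RNA: the casein genes, chosen for this after their values were seen, stood in fibroblast-like cells at 2.75% to 7.91% of their level in secretory-like cells, and Cxcl1 at 801% and 1163%.

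Cxcl2 had a different gland source. Secretory-like cells held 57.3% of its UMIs in MG1 (52.1% to 60.5%) and 50.7% in MG2 (47.0% to 55.8%). In MG2 the fibroblast-like cells had the higher level, 4169 CPM (3386 to 4842) against 1157 in secretory-like cells, and in both MG1 libraries the lower one, at 0.755 and 0.909 times the secretory-like level. Per molecule of Cxcl1, fibroblast-like cells held 0.145 of Cxcl2 in MG1 and 0.502 in MG2, and secretory-like cells 1.17 and 1.62. Cxcl3 in MG2 came mostly from fibroblast-like cells (134 CPM, 61.5% of UMIs, range 52.5% to 71.1%). Cxcl5 in MG2 was spread over secretory-like cells (21.4 CPM, 43.5%), fibroblast-like cells (83.7 CPM, 17.9%) and hormone-sensing-like cells (15.5 CPM).

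Cxcl14 was the basal chemokine of the gland. Basal-like cells stood at 1727 CPM in MG1 and 2447 in MG2 and held 61.6% (58.6% to 71.2%) and 55.2% (49.7% to 61.1%) of its UMIs. It was found in 68.9% and 81.7% of thinned basal-like cells (88.3% and 92.0% unthinned, at a median of 2561 and 1965 UMIs). Secretory-like cells stood at 94.5 and 107 CPM and fibroblast-like cells at 297 and 1013. Cxcl12 was shared by fibroblast-like cells (299 and 723 CPM, 59.4% and 39.3% of UMIs) and basal-like cells (171 and 410.2 CPM, 21.7% and 35.5%), with 11.3 and 23.5 CPM in secretory-like cells. Cx3cl1 was highest in basal-like cells, at 93.6 and 96.4 CPM, next to 48.5 and 34.95 in secretory-like and 6.19 and 5.58 in fibroblast-like cells. Cxcl16 was even across the epithelium, from 33.5 to 48.4 CPM in the MG1 classes. Endothelial-like cells were few but rich in Cxcl9: the 17 of MG1 held 34 UMIs (552 CPM, 41.0% of the gland's Cxcl9), next to 47.0% from fibroblast-like cells, and those of MG2 held 15 of its 26 UMIs.

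**Figure D2:**
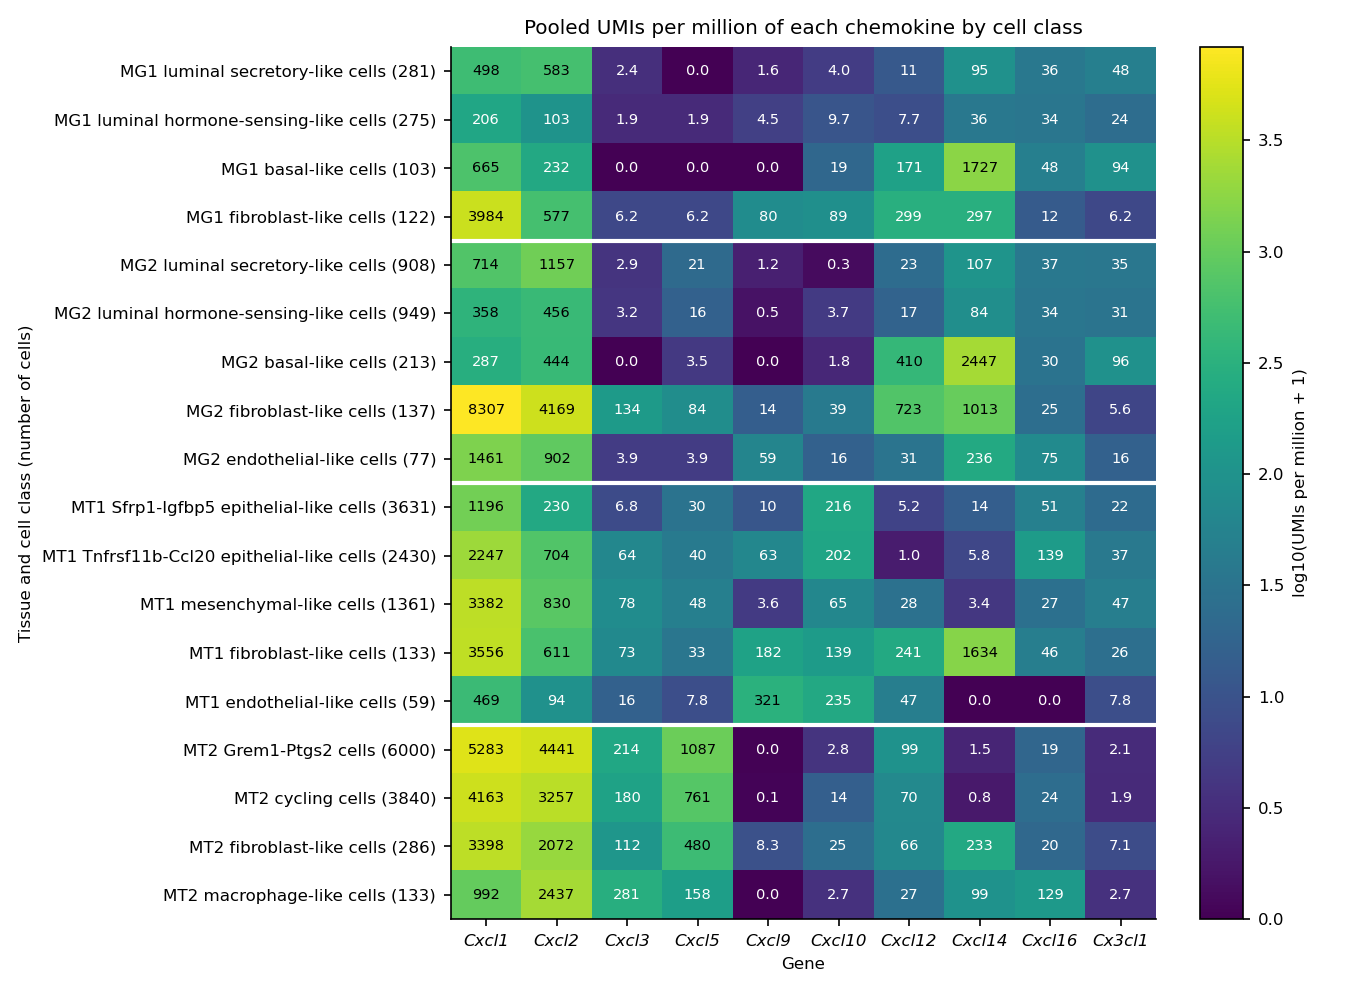
Pooled level of each chemokine (columns) in each class of each group (rows), in CPM, coloured on a log scale. In the glands Cxcl1 is highest in fibroblast-like cells and Cxcl14 in basal-like cells. In MT2 the ELR chemokines are high in both tumor classes.

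In MT1 nearly all Cxcl1 came from the tumor cells. Mesenchymal-like cells stood at 3382 CPM (3094 to 3958), Tnfrsf11b-Ccl20 cells at 2247 (2086 to 2598) and Sfrp1-Igfbp5 cells at 1196 (1114 to 1538), in this order in 5 of 5 libraries. They held 33.4%, 33.9% and 29.4% of its UMIs, so no class was dominant. Fibroblast-like cells had the highest level, 3556 CPM, above the mesenchymal-like cells in 4 of 4 libraries by a small margin (mesenchymal-like at 0.899 to 0.980 times their level), but gave 2.75% of the UMIs. Thinned, Cxcl1 was found in 66.4% of mesenchymal-like, 51.6% of Tnfrsf11b-Ccl20 and 43.7% of Sfrp1-Igfbp5 cells (79.9%, 65.3% and 62.0% unthinned, median 2329, 2025 and 2127 UMIs).

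Cxcl2 and Cxcl3 of MT1 sat mainly outside the Sfrp1-Igfbp5 cells. Cxcl2 stood at 830.0 CPM in mesenchymal-like and 704 in Tnfrsf11b-Ccl20 cells against 230.0 in Sfrp1-Igfbp5 cells, and Cxcl3 at 78.4 and 63.6 against 6.77. Tnfrsf11b-Ccl20 and mesenchymal-like cells held 48.9% and 39.5% of the Cxcl3 UMIs. Cxcl5 was flatter, at 47.9, 40.4 and 30.2 CPM, and 39.9% of its UMIs lay in Sfrp1-Igfbp5 cells, 32.7% in Tnfrsf11b-Ccl20 cells and 25.4% in mesenchymal-like cells.

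Cxcl10 had the reverse layout in MT1. Sfrp1-Igfbp5 cells stood at 216 CPM (178 to 246), Tnfrsf11b-Ccl20 cells at 202 (146 to 237) and mesenchymal-like cells at 64.7 (33.9 to 95.4), and the Sfrp1-Igfbp5 cells held 57.7% of the UMIs (53.7% to 64.0%). Both epithelial-like classes lay above the mesenchymal-like class in 5 of 5 libraries, and neither above the other in all 5. Cxcl9 was more restricted: Tnfrsf11b-Ccl20 cells held 64.0% (51.1% to 72.5%) at 63.3 CPM (41.4 to 90.5), with 10.31 in Sfrp1-Igfbp5 and 3.62 in mesenchymal-like cells. It was found in 2.96% of thinned Tnfrsf11b-Ccl20 cells (4.81% unthinned). Endothelial-like and fibroblast-like cells of MT1 had the higher levels of Cxcl9, 321 and 182 CPM, and gave 7.03% and 9.43% of it.

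Cxcl16 in MT1 centred on the same cells as Cxcl9. Tnfrsf11b-Ccl20 cells stood at 139 CPM (115 to 156) and held 57.3% (53.3% to 60.5%), above Sfrp1-Igfbp5 cells (50.5 CPM) and mesenchymal-like cells (26.9 CPM) in 5 of 5 libraries. Cx3cl1 stood at 46.6 CPM in mesenchymal-like, 37.0 in Tnfrsf11b-Ccl20 and 22.4 in Sfrp1-Igfbp5 cells. Cxcl12 and Cxcl14 were low in the MT1 tumor cells. Cxcl12 stood at 27.7 CPM in mesenchymal-like, 5.21 in Sfrp1-Igfbp5 and 1.02 in Tnfrsf11b-Ccl20 cells against 241 in fibroblast-like cells. Mesenchymal-like cells still held 44.0% of the 243 Cxcl12 UMIs of MT1 (25.7% to 76.2%), fibroblast-like cells 30.04% (9.52% to 51.4%) and Sfrp1-Igfbp5 cells 20.6%. Cxcl14 stood at 13.9 CPM in Sfrp1-Igfbp5 cells against 1634 (1318 to 2454) in fibroblast-like cells, which made up 1.73% of MT1 and held 70.9% of its Cxcl14 (47.1% to 76.6%).

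**Figure D3:**
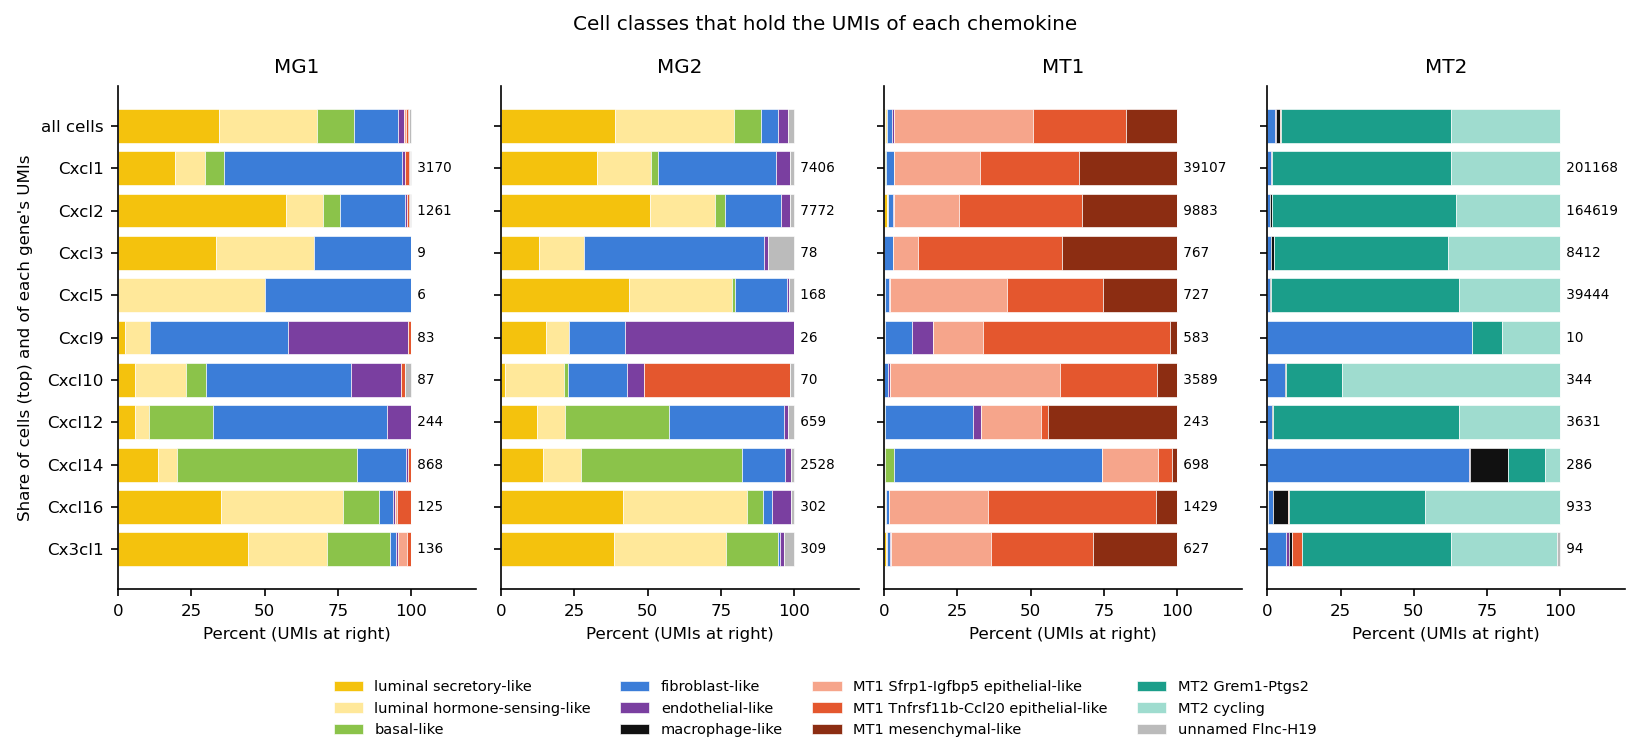
Percent of the UMIs of each chemokine that came from each class, for each of the 4 groups, with the number of UMIs at the right of each bar. Fibroblast-like cells hold 60.9% of Cxcl1 in MG1, and the Grem1-Ptgs2 and cycling cells hold nearly all Cxcl1, Cxcl2, Cxcl3 and Cxcl5 in MT2.

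In MT2 both tumor classes made the ELR chemokines. Cxcl1 stood at 5283 CPM (4452 to 5858) in Grem1-Ptgs2 cells and 4163 (3661 to 4421) in cycling cells, 1.22 to 1.32 times apart in the 3 libraries, and these classes held 61.1% and 37.2% of its UMIs. Cxcl2 stood at 4441 and 3257 CPM, Cxcl3 at 214 and 180 (179.7) and Cxcl5 at 1087 (1026 to 1131) and 761. Grem1-Ptgs2 cells held 59.1% to 64.1% of each of the 4 genes, against 58.2% of the tumor's cells. Thinned, Cxcl1 was found in 86.1% of Grem1-Ptgs2 and 82.9% of cycling cells (94.6% and 94.0% unthinned, median 2988.5 and 3415 UMIs), and Cxcl5 in 48.2% and 39.3% (70.5% and 68.6%).

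The stroma of MT2 gave little of the ELR chemokines. Fibroblast-like cells stood at 3398 CPM of Cxcl1 and gave 1.43% of it. Macrophage-like cells stood at 992 CPM (279 to 2119), with Cxcl1 in 40.6% of them thinned and 58.6% unthinned. That share has to be read beside the tumor genes found in the same cells. Grem1, Nalcn and Gdpd2 are genes of the tumor cells, picked after their values were seen. Pooled over libraries, they stood in macrophage-like cells at 20.4%, 9.74% and 12.5% of their tumor-cell level. These shares rest on 90, 5 and 2 UMIs in the macrophage-like cells, so the lower shares are uncertain. Cxcl1 and Cxcl5 stood at 18.8% and 14.6%, within the range of those genes. Cxcl2 stood at 54.9%, Cxcl3 at 132% and Cxcl16 at 693% of the tumor-cell level, above that range. The part of tumor RNA in these levels was not tested. The macrophage-like cells held 2.46 molecules of Cxcl2 per molecule of Cxcl1, where the tumor classes held 0.841 and 0.782. Their Cxcl3 level was 281 CPM (233 to 393), above the tumor classes and the fibroblast-like cells (112) of MT2, and their Cxcl16 level 129 CPM (84.6 to 153) against 18.6 in Grem1-Ptgs2 and 23.9 in cycling cells. With 133 cells, they gave 1.25% of the Cxcl3 and 5.15% of the Cxcl16 of MT2.

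In MT2 nearly all Cxcl12 came from the 2 tumor classes. Grem1-Ptgs2 cells stood at 99.1 CPM and held 63.5% (58.4% to 68.2%), cycling cells stood at 70.0 (34.7%), and fibroblast-like cells at 66.2, below the Grem1-Ptgs2 cells in 3 of 3 libraries. Cxcl14 came from the stromal classes: fibroblast-like cells at 233 CPM (225 to 248) held 68.9% of it, and Grem1-Ptgs2 cells stood at 1.55. Macrophage-like cells at 99.2 CPM, on 37 UMIs, held 12.9%. The part of fibroblast RNA in that level was not tested. What little Cxcl10 there was lay in cycling cells, at 14.2 CPM against 2.84 in Grem1-Ptgs2 cells, with 74.4% of 344 UMIs. Cx3cl1 stood at 2.06 and 1.89 CPM in the tumor classes.

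**Figure D4:**
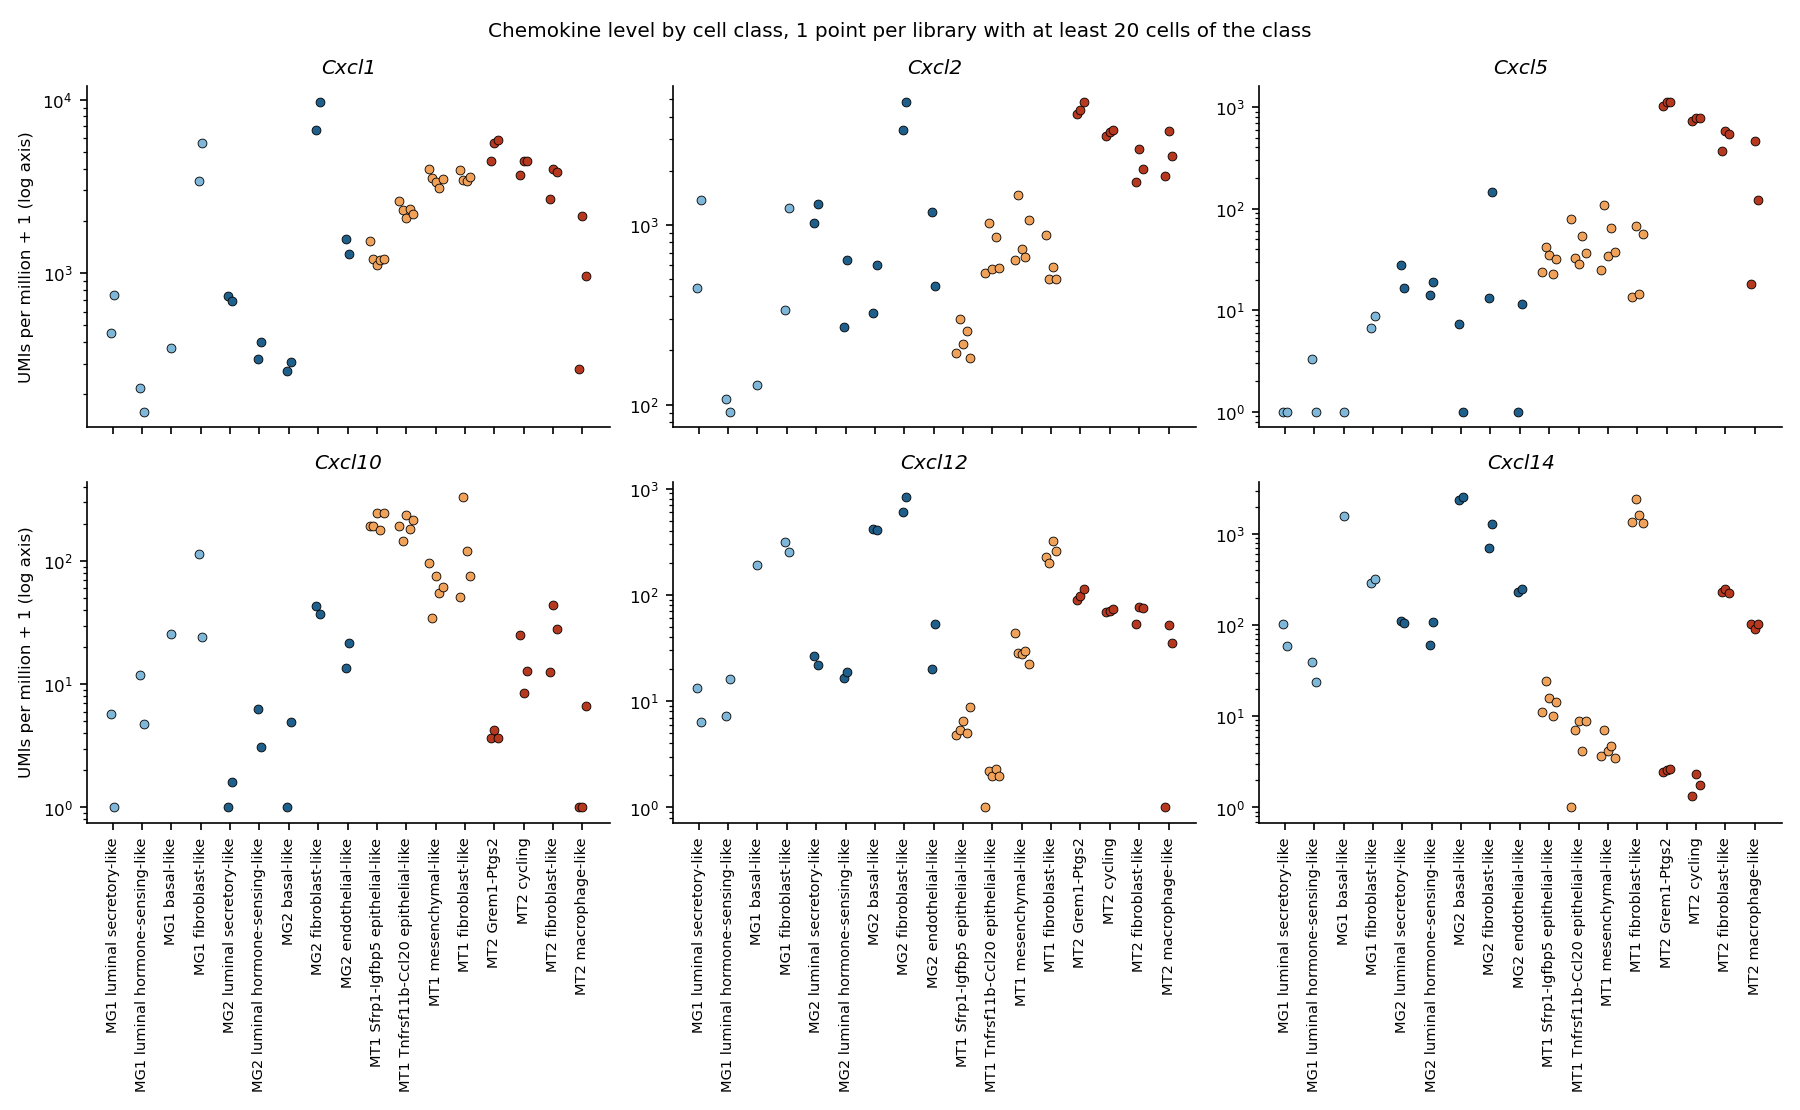
Level of Cxcl1, Cxcl2, Cxcl5, Cxcl10, Cxcl12 and Cxcl14 by class, as CPM + 1 on a log axis, with 1 point for each library that held at least 20 cells of the class. Cxcl12 is highest in fibroblast-like and basal-like cells of the glands and, within MT2, in Grem1-Ptgs2 cells, and Cxcl14 is highest in basal-like and fibroblast-like cells.

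Cells differed in how much Cxcl1 they held. At 1000 UMIs per cell the median was 4 UMIs in Grem1-Ptgs2 cells, 3 in cycling cells of MT2, 1 in mesenchymal-like and in Tnfrsf11b-Ccl20 cells of MT1, 0 in Sfrp1-Igfbp5 cells, and 7 and 2 in the fibroblast-like cells of MG2 and MG1.

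The ELR genes went together in single cells. Among thinned Grem1-Ptgs2 cells, Cxcl2 was found in 79.6% of cells with Cxcl1 and 30.3% of cells without it, at a near equal depth before thinning (median 2975.5 and 3119 UMIs), and Cxcl5 in 51.9% and 24.7%. Among Tnfrsf11b-Ccl20 cells of MT1 the Cxcl2 figures were 35.1% and 5.61%. Across the cells of a library, thinned counts of Cxcl1 and Cxcl2, as log2(count + 1), correlated at r = 0.65 to 0.69 in Grem1-Ptgs2 cells over 3 libraries. Over the 5 MT1 libraries r was 0.53 to 0.63 in Tnfrsf11b-Ccl20 cells, 0.37 to 0.59 in mesenchymal-like cells and 0.36 to 0.41 in Sfrp1-Igfbp5 cells, as a description of cells that share a library. Cxcl10 did not follow Cxcl1 as closely, being found in 13.1% and 9.61% of Tnfrsf11b-Ccl20 cells with and without Cxcl1. It was found in 47.2% of the 72 cells with Cxcl9 and 10.305% of those without.

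The first test compared each tumor with the gland of the same mouse, over all cells and with libraries as replicates (edgeR's quasi-likelihood test, Benjamini-Hochberg adjustment over 14106 genes, called at an adjusted p under 0.05). In MT1 against MG1, 5 of the 10 chemokines rose and 2 fell, where 61.9% of all genes tested were called. Cxcl5 rose by 4.50 ± 0.32 (log2, SE; adjusted p = 1.39e-08), Cxcl3 by 4.05 ± 0.44, Cxcl10 by 3.02 ± 0.40, Cxcl16 by 1.16 ± 0.22 and Cxcl1 by 0.97 ± 0.21 (adjusted p = 0.000766). Cxcl14 fell by 2.86 ± 0.29 and Cxcl12 fell by 2.40 ± 0.16. Cxcl2 (0.18 ± 0.27), Cxcl9 (0.44 ± 0.30) and Cx3cl1 (-0.10 ± 0.21) did not pass. The gland of mouse 1 decided the value of Cxcl2: it was -0.33 without MG1 replicate 1 and 0.89 (adjusted p = 0.00776) without MG1 replicate 2, the library of 105 cells. Without MG1 replicate 1, Cxcl3 stood at 3.01, Cxcl10 at 4.51 and Cxcl16 at 1.97, all still called.

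In MT2 against MG2, 4 rose and 4 fell, where 65.6% of genes were called. The 4 that rose were the ELR genes: Cxcl5 by 5.74 ± 0.20 (adjusted p = 7.44e-13), Cxcl3 by 4.61 ± 0.30, Cxcl1 by 2.63 ± 0.24 and Cxcl2 by 2.27 ± 0.31. Cxcl14 fell by 5.28 ± 0.36, Cx3cl1 fell by 3.84 ± 0.22, Cxcl9 fell by 3.41 ± 0.60 and Cxcl16 fell by 0.51 ± 0.21 (adjusted p = 0.0383). Cxcl10 (0.15 ± 0.42) and Cxcl12 (0.33 ± 0.14, adjusted p = 0.0578) did not pass. Cxcl9 stood at -2.70 without MG2 replicate 1 and -4.43 without MT2 replicate 3, called in both. The call on Cxcl16 was lost in 7 alternative settings here and in 7 among the epithelial and tumor cells below. The median over the 10 chemokines was 0.70 in MT1 and 0.24 in MT2, beside 0.09 and -0.04 over all genes.

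The summed fibroblast markers ran from 1133 to 3231 CPM in the gland libraries, 666 to 1362 in MT1 and 3736 to 4590 (4589.6) in MT2. All 10 of 10 genes were found in each library. The sum takes in every cell and does not measure the share of fibroblasts, since fibroblast-like cells were 2.77% of MT2. They were 14.9% of MG1, 5.87% of MG2 and 1.73% of MT1, and those of the glands were rich in Cxcl1. The comparison was therefore repeated on the 20160 epithelial and tumor cells, without the 997 fibroblast-like, endothelial-like and macrophage-like (stromal) cells. The cells kept include a class of 60, called by its leading genes Flnc and H19 and given no cell type name. Of these, 48 were in MG2, and 0 of the epithelial markers were raised in the class. In these cells alone Cxcl1 stood at 334 and 564 CPM in MG1, 498 and 512 in MG2, 2395, 1840, 1846, 1928 and 2007 in MT1 and 4119, 5018 and 5275 in MT2. The gap between tumor and gland was wider than in all cells: 2.21 ± 0.19 in MT1 (adjusted p = 6.43e-08) and 3.39 ± 0.21 in MT2 (adjusted p = 1.41e-10). In MT1 against MG1, 6 chemokines rose and 2 fell, where 59.4% of 13702 genes were called. Those that rose were Cxcl1, Cxcl3 (4.37 ± 0.53), Cxcl5 (5.25 ± 0.43), Cxcl9 (2.99 ± 0.44), Cxcl10 (4.25 ± 0.49) and Cxcl16 (0.98 ± 0.21), and those that fell were Cxcl12 (-1.56 ± 0.23) and Cxcl14 (-4.58 ± 0.22). Basal-like cells, the epithelial class of MG1 highest in Cxcl12 and Cxcl14, numbered 103 in MG1 and 3 in MT1. In these sums too, fewer cells of a type and less RNA per cell cannot be told apart. Cxcl5 in MG1 rested on 3 UMIs against 716 in MT1, a ratio of 39.6 with an exact counting interval of 13.5 to 192. Without MG1 replicate 1 Cxcl12 stood at -1.09 (adjusted p = 0.0552), while Cxcl3 (3.18), Cxcl9 (4.07), Cxcl10 (5.28) and Cxcl16 (1.76) kept their calls; Cxcl5 then had no UMI left in the gland. Cxcl3 stood at 5.08 without MG1 replicate 2.

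Cxcl9 thus differed in MT1 between the 2 sets of cells. In epithelial and tumor cells it stood at 3.34 and 1.83 CPM in MG1 and 19.9, 37.4, 21.3, 24.97 and 24.8 in MT1, whereas over all cells, with the gland's fibroblast-like and endothelial-like cells counted, MG1 adjoined the level of the tumor. In MT2 against MG2, 5 chemokines of the epithelial and tumor cells rose and 4 fell, where 66.7% of genes were called. Cxcl5 (5.93 ± 0.23), Cxcl3 (5.92 ± 0.36), Cxcl1, Cxcl2 (2.53 ± 0.29) and Cxcl12 (0.97 ± 0.17, adjusted p = 7.42e-05) rose. Cxcl14 fell by 7.56 ± 0.28, Cx3cl1 fell by 4.02 ± 0.23, Cxcl9 fell by 2.90 ± 0.96 on 3 and 6 UMIs, and Cxcl16 fell by 0.55 ± 0.19. The call on Cxcl9 was lost without MG2 replicate 2 (-2.33, adjusted p = 0.169) and without the 5% of cells with the highest doublet scores (-2.36, adjusted p = 0.0826), and the value was -3.57 without MT2 replicate 3. Cxcl12 in these cells stood at 52.5 and 44.9 CPM in MG2 and 79.7, 83.2 and 96.6 in MT2, without overlap. The MG2 sum mixes classes that differ. At 1000 UMIs per cell, mean Cxcl12 was 0.437 in basal-like, 0.0148 in hormone-sensing-like and 0.0198 in secretory-like cells of MG2. In MT2 the mean was 0.103 in Grem1-Ptgs2 and 0.0701 in cycling cells, below the basal-like and above the luminal classes.

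Cxcl10 in MG2 was concentrated in 1 cell. This cell of MG2 replicate 1, which clustered with the Tnfrsf11b-Ccl20 cells of MT1, held 35 of the 70 Cxcl10 UMIs of MG2, where the next highest cell held 7. In epithelial and tumor cells the change in MT2 against MG2 was 0.40 ± 0.46 (adjusted p = 0.456). In the same fit without the 14 gland cells that fell in tumor clusters, Cxcl10 rose by 2.01 (adjusted p = 0.00063). The other 13 of these gland cells were from MG1, and no call on the chemokines of MT1 against MG1 changed without them.

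**Figure D5:**
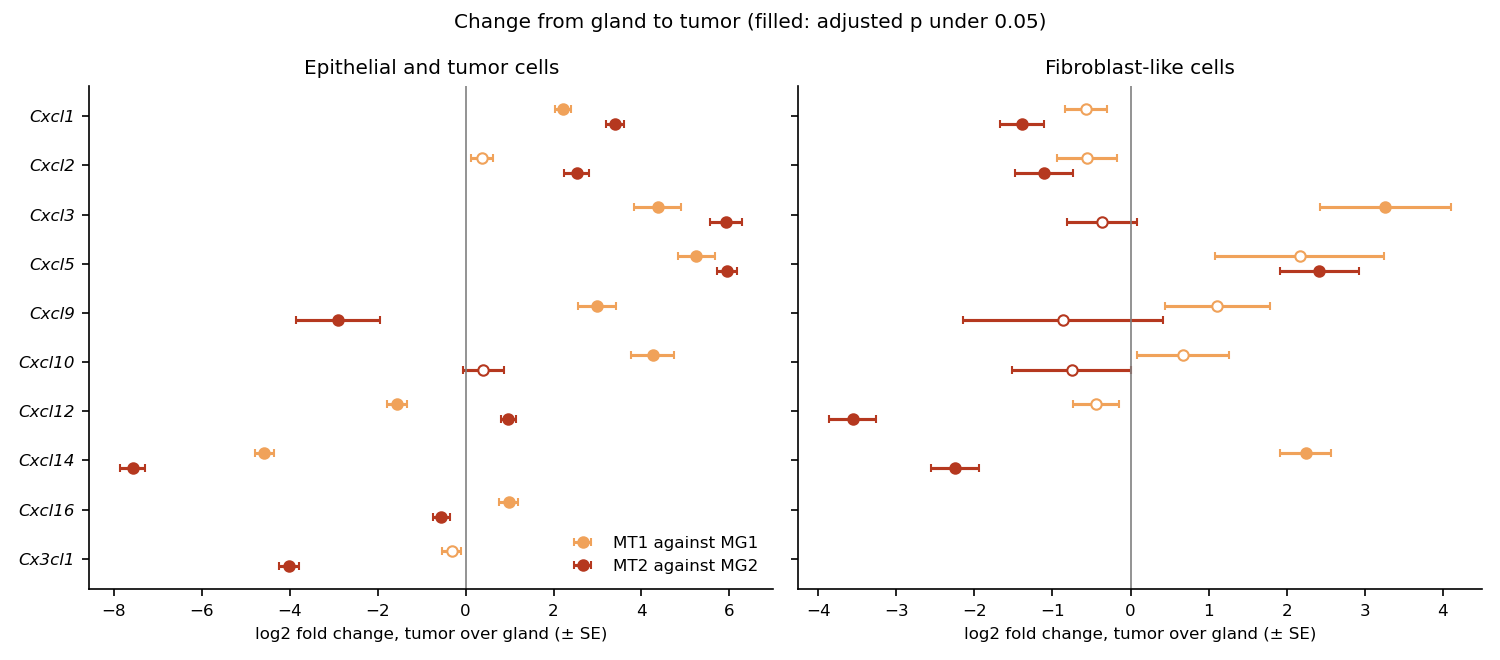
Log2 fold change of each chemokine in each tumor against the gland of the same mouse, with its standard error, for epithelial and tumor cells and for fibroblast-like cells. Filled points have an adjusted p under 0.05. In epithelial and tumor cells Cxcl1, Cxcl3 and Cxcl5 rose in both tumors and Cxcl14 fell in both.

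The next comparison was between the changes in the 2 mice. In epithelial and tumor cells the difference between the changes of the 2 mice (mouse 1 minus mouse 2) was called for 8 of the 10 chemokines, where 43.6% of genes were called. It was negative for Cxcl1 (-1.18 ± 0.25), Cxcl2 (-2.16 ± 0.36) and Cxcl12 (-2.53 ± 0.29), and positive for Cxcl9 (5.89 ± 1.16), Cxcl10 (3.85 ± 0.71), Cx3cl1 (3.70 ± 0.32), Cxcl14 (2.98 ± 0.38) and Cxcl16 (1.53 ± 0.29). For Cxcl3 (-1.55 ± 0.96, adjusted p = 0.202) and Cxcl5 (-0.69 ± 0.83, adjusted p = 0.564) it was not called. The difference for Cxcl10 did not pass without MG2 replicate 1, the library of the cell described above (1.99, adjusted p = 0.109), and was 4.69 without MG2 replicate 2. Without MG1 replicate 1 the difference was 4.84 for Cxcl10, 6.95 for Cxcl9 and 2.28 for Cxcl16, and for Cxcl9 it was 6.55 without MT2 replicate 3, all called.

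Set directly against each other in epithelial and tumor cells, MT1 and MT2 differed in all 10 chemokines, where 68.3% of genes were called. Cxcl9 (8.05 ± 0.40), Cxcl10 (4.44 ± 0.32), Cx3cl1 (3.92 ± 0.21), Cxcl14 (2.98 ± 0.28) and Cxcl16 (1.71 ± 0.16) were higher in MT1. Cxcl9 rested on 3 UMIs in MT2 against 487 in MT1, a ratio of 343 with an exact counting interval of 117 to 1670.0, and stood at 8.72 without MT2 replicate 3. Cxcl5 (-4.70 ± 0.14), Cxcl12 (-3.40 ± 0.15), Cxcl2 (-3.02 ± 0.21), Cxcl3 (-2.31 ± 0.19) and Cxcl1 (-1.32 ± 0.14) were lower. The 4 ELR genes and Cxcl12 thus lay on the MT2 side, and the interferon-induced, membrane-anchored and Cxcl14 genes on the MT1 side. Each tumor came from a different mouse, so tumor and mouse cannot be told apart. Over all cells the same 5 were higher and the same 5 lower, where 66.4% of genes were called. With the mouse as the replicate (2 pairs of summed tissues), 0 of 15354 genes were called by edgeR (0%, 2240 at an unadjusted p under 0.05) and 1303 by DESeq2, 4 of the chemokines among them. In that edgeR fit Cxcl5 stood at 5.27 and Cxcl3 at 4.39, and Cxcl14 at -3.94, higher or lower in both mice.

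Fibroblast-like cells, the class with the largest share of Cxcl1 UMIs in each gland, were not called higher in Cxcl1 in either tumor. Their Cxcl1 stood at 3402 and 5583 CPM in MG1, 6634 and 9746 in MG2, 3923, 3431, 3403 and 3565 in 4 MT1 libraries and 2664, 3975 and 3844 in MT2. Against its gland MT1 overlapped (-0.57 ± 0.27, adjusted p = 0.102), and MT2 lay wholly below (-1.40 ± 0.28, adjusted p = 0.00111). MT1 replicate 1, with 12 fibroblast-like cells, was left out of this fit. Of the 8 chemokines tested here, 2 rose and 0 fell in MT1, where 35% of 4134 genes were called, and 1 rose and 4 fell in MT2, where 20.6% were called. Cxcl3, on 22 UMIs in MT1 and 3 in MG1 (ratio 11.7, exact counting interval 3.53 to 61.3), rose by 3.27 ± 0.84 and lost its call without MG1 replicate 1 (2.94, adjusted p = 0.0638); it was 2.45 without MT1 replicate 3. Cxcl2 fell in MT2 by 1.11 ± 0.37 (adjusted p = 0.0377), a call lost in 8 alternative settings, and Cxcl1 in MT2 stood at -1.08 (adjusted p = 0.0506) without MG2 replicate 2.

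Cxcl12 and Cxcl14 of the fibroblast-like cells moved apart between the tumors. Cxcl14 stood at 290 (289.8) and 317 CPM in MG1 and 1362, 2454, 1608 and 1318 in MT1, a rise of 2.24 ± 0.33 (adjusted p = 3.73e-05), and at 706 and 1277 in MG2 and 230, 248 and 225 in MT2, where it fell by 2.24 ± 0.31 (adjusted p = 1.80e-05). Cxcl12 stood at 598 and 830.3 CPM in MG2 and 52.4, 76.4 and 74.96 in MT2, where it fell by 3.56 ± 0.30 (adjusted p = 5.04e-08), and the groups of mouse 1 overlapped (-0.45 ± 0.29). Cxcl5 rose in the fibroblast-like cells of MT2 by 2.42 ± 0.51, from 12.1 and 145 CPM to 370, 578 and 538. The 2 gland libraries differed, and the change was 1.60 without MG2 replicate 1 and 5.12 without MG2 replicate 2, called in both. In MT2 the tumor genes Grem1, Nalcn and Gdpd2 stood in these cells at 40.7%, 15.5% and 24.7% of their tumor-cell level and Cxcl5 at 44.2%; the part of tumor RNA in that rise was not tested. In the fibroblast-like cells of MT1, Sfrp1, Atp6v1c2 and Pla2g7 stood at 89.6%, 11.8% and 29.1% of their level in Sfrp1-Igfbp5 cells, which they lead. Cxcl3 stood there at 72.6 CPM, between its levels in the mesenchymal-like and Tnfrsf11b-Ccl20 cells. The part of tumor RNA in the rise of Cxcl3 in MT1 was not tested. Different sub-clusters held most fibroblast-like cells of each group: 73.0% of those of MG1, 81.8% of MG2, 92.5% of MT1 and 56.6% of MT2 each lay in a different sub-cluster.

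The receptors of these ligands were read over all cells. Of 9 receptor genes listed, Cxcr1 and Cxcr3 were not analysed here and 3 had enough counts to test. Cxcr4, the receptor of Cxcl12, fell by 2.73 ± 0.59 in MT1 and fell by 2.32 ± 0.60 in MT2, and in epithelial and tumor cells fell by 3.35 ± 0.53 and fell by 3.32 ± 0.61. Ackr3, which scavenges Cxcl12, fell by 2.45 ± 0.25 in MT1 and rose by 2.26 ± 0.26 in MT2, where it stood at 139 CPM in Grem1-Ptgs2 and 99.5 in cycling cells, beside 483 and 304 in the fibroblast-like cells of MG1 and MG2. In epithelial and tumor cells Ackr3 stood at -0.32 ± 0.37 in MT1, which did not pass, and rose by 3.22 ± 0.31 in MT2. In MT2 the ligand Cxcl12 and its scavenger were thus counted in the same classes. Ackr1, an endothelial chemokine sink, stood at 1256 CPM in endothelial-like cells of MG2 and 587 in those of MT1 and fell by 8.53 ± 0.60 in MT2, where 4 UMIs were counted. Cxcr2, the neutrophil receptor of the ELR ligands, gave 4 UMIs in each tumor and 0 in the glands, where 3 counts would have been 0.792 CPM in MG1 and 0.347 in MG2. Cxcr6 gave 9 UMIs in MT1, and Cx3cr1 stood at 32.2 CPM in the macrophage-like cells of MT2. Since blood cells had been depleted, these counts do not describe the leukocytes of the tissue.

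Genes known to act upstream of these chemokines were counted from lists, over all cells and against the background shares given above. Of 19 interferon-response genes, 14 rose and 2 fell in MT1 and 2 rose and 10 fell in MT2. Ifit3 (3.64 ± 0.29) and Usp18 (3.28 ± 0.34) rose in MT1, and Usp18 (-4.12 ± 0.33) and Iigp1 (-4.10 ± 0.21) fell in MT2. In epithelial and tumor cells the difference between the mice was called for 17 of the 19, all in the direction of Cxcl9 and Cxcl10. The median over the list was 1.49 in MT1 and -1.18 in MT2.

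The NF-kB list was mixed. Of its 19 genes 6 rose and 6 fell in MT1 and 2 rose and 5 fell in MT2, and in epithelial and tumor cells 6 rose and 3 fell in MT1 and 6 rose and 5 fell in MT2. Nfkb1, a subunit, fell by 1.66 ± 0.13 and Nfkbiz, a co-activator, rose by 1.31 ± 0.21 in MT1. Lcn2 (-3.94 ± 0.19) and Cebpd (-3.86 ± 0.18), targets in epithelial cells, fell in MT2, where the ELR ligands rose. Of 13 receptors of inducing cytokines, 6 rose and 4 fell in MT1, led by Il17ra (-2.66 ± 0.24) and Ifngr2 (2.49 ± 0.18), and 7 rose and 3 fell in MT2, led by Tlr2 (1.91 ± 0.23) and Il1r1 (1.45 ± 0.16), the interleukin 1 receptor.

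Among the inducing cytokines and growth factors, 5 of 10 had enough counts to test. Il6 fell by 3.91 ± 0.37 and Csf3 fell by 1.96 ± 0.24 in MT1. Csf2, a myeloid growth factor, rose by 5.35 ± 0.53 and Tnf fell by 2.73 ± 0.35 in MT2. Il1b was found mainly in macrophage-like cells of MT2, at 172 CPM. Among proteases that process chemokines, Mmp9, which trims ELR ligands, gave 0 UMIs in the glands, 155 in MT1 and 4436 in MT2, and Dpp4, which inactivates Cxcl12 and Cxcl10, fell by 5.32 ± 0.49 in MT1 and fell by 3.94 ± 0.49 in MT2. Among 6 regulators of mRNA decay, 1 rose and 4 fell in MT1 and 3 rose and 3 fell in MT2. Zc3h12c (-1.21 ± 0.20) and Zfp36l1 (-0.93 ± 0.20) fell in MT1, and Zfp36l1 (-1.42 ± 0.22) and Zfp36 (-1.13 ± 0.15), which binds AU-rich elements, fell in MT2.

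Cxcl1 and Cxcl2 can be induced by tissue digestion, and a list of 14 immediate early and heat shock genes was read beside them. In MT1 3 of the 14 rose and 7 fell, led by Fosb (-2.53 ± 0.21) and Hspa1b (-1.71 ± 0.34), and in MT2 4 rose and 8 fell, led by Fos (-2.88 ± 0.28) and Jun (-2.68 ± 0.36). In fibroblast-like cells 0 rose and 3 fell in MT1, and 0 rose and 8 fell in MT2, where Cxcl1 and Cxcl2 fell as well. The part of digestion in the chemokine levels was not tested.

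The genes whose pattern was most like each chemokine were sought over 18 class-by-group sums of at least 50 cells, by Pearson's r of log2(CPM + 10), as a description. Cxcl10 was most like Ifit3 (0.93), Ifit1 (0.92) and Rtp4 (0.88), and Cxcl9 most like Gbp5 (0.93), Pml and Phf11d. Cxcl1 was most like Ccl2 (0.89), a monocyte-attracting CC chemokine, then Serpinb6a and Timp2 (0.87 each). The genes most like Cxcl5 were Zfp931 (0.97), Fbxw8 and Gm20939, and those most like Cxcl14 were Plxdc2 (0.97), Scn7a and Prkg1. For the rest the closest was Abcc1 for Cxcl2 (0.86), Ctsz for Cxcl3 (0.94), Prelp for Cxcl12 (0.92), Tbc1d14 for Cxcl16 (0.87) and Hnrnpab for Cx3cl1 (0.90). Among the chemokines themselves the closest pairs were Cxcl3 and Cxcl5 (0.87), Cxcl2 and Cxcl5 (0.78), Cxcl9 and Cxcl10 (0.76), Cxcl2 and Cxcl3 (0.75), Cxcl1 and Cxcl3 (0.72), and Cxcl1 and Cxcl2 (0.72).

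The neighbours of these genes were counted too. Within 1 Mb of the Cxcl5 to Cxcl2 group, 11 genes other than chemokines were tested, of which 2 rose and 5 fell in MT1 and 4 rose and 5 fell in MT2. Within 1 Mb of Cxcl9 and Cxcl10, 27 were tested, of which 7 rose and 6 fell in MT1 and 4 rose and 17 fell in MT2. Of all genes tested 61.9% and 65.6% were called, and nothing particular to the neighbours is read from these counts.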

How the data were processed

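Per the labels and the study's methods, the authors captured cells by Drop-seq, sequenced them on an Illumina HiSeq and aligned reads with STAR, within the Drop-seq tools, to Ensembl GRCm38.p6 (STAR version not given in the sources used here). The deposited values are raw UMI counts of 21743 genes in 21157 cells, with no normalization; the lowest cell had 800 genes and 1111 UMIs. All columns were assigned to a library.

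Cells were clustered (Python 3.11.15, scanpy 1.11.5, leidenalg 0.10.2; 3000 variable genes, 33 chemokine genes left out, 30 components, 20 neighbours, resolution 0.6), giving 10 clusters and 25 sub-clusters, and named "X-like" from marker lists. A doublet caller marked 0.208% of cells, too few to have worked, so no doublets were removed. Counts were summed per library, and edgeR 4.0.16 (R 4.3.3) gave the tests (TMM, quasi-likelihood test, all groups in 1 fit, Benjamini-Hochberg adjustment), checked on simulated data. DESeq2 1.42.0, other scalings, filters, clusterings and left-out libraries were alternatives. Fibroblast-like cells were tested in libraries with 20 or more of them. Shares are of cells with a UMI, after thinning to 1000 UMIs where stated; intervals and the limit of 3 counts for a count of 0 cover counting error only.

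The 10 chemokines and the related lists were chosen with earlier results of these data known. Named beside them are the receptors, the 2 called genes of largest change in each other list and tumor, and the 3 genes most like each chemokine. Promoters are RefSeq's (GRCm38.p6), relative to RefSeq starts, matched for 8 of the 10 genes by symbol. Other gene positions are Ensembl's.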

Additional observations from a re-analysis of the deposited data

Results flagged for a closer look

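In 60 groups of 4 or 5 libraries tested for a library far from the others, 3 stood out, where chance gives about 1 in 20. Cxcl1 in the Sfrp1-Igfbp5 cells of MT1 stood at 1538 CPM in replicate 1 against 1114 to 1205 in the others. Cxcl12 in the Tnfrsf11b-Ccl20 cells stood at 0 CPM in the same library against 0.979 to 1.28; the class held 6 Cxcl12 UMIs over all 5 libraries, so the 0 among the 237 cells of that library cannot be told from counting error. Cx3cl1 in the fibroblast-like cells of MT1 stood at 93.1 CPM in replicate 4 against 0 to 13.2.

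For 8 chemokines the change from gland to tumor differed between the mice in epithelial and tumor cells (interaction term, edgeR, log2 of mouse 1 minus mouse 2). It was -1.18 for Cxcl1 (adjusted p = 0.00089), -2.16 for Cxcl2 (0.000117), -2.53 for Cxcl12 (1.55e-06), 5.89 for Cxcl9 (0.000544), 3.85 for Cxcl10 (0.000298), 2.98 for Cxcl14 (5.66e-06), 1.53 for Cxcl16 (0.000357) and 3.70 for Cx3cl1 (4.83e-08). Each mouse gave 1 tumor, so a difference between mice and a difference between tumors cannot be told apart.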

How the results depend on the processing

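Outside the left-out libraries, 617 fold changes of the chemokines kept direction and side of the threshold, 9 gained a call, 6 lost one and 3 changed sign; with a library left out the counts were 974, 9, 22 and 11. Changes of sign were all of fold changes that had no call. With 1 library left out, the range in MT1 against MG1 over all cells was -0.33 (without MG1 replicate 1) to 0.89 (without MG1 replicate 2) for Cxcl2 and -0.32 (without MG1 replicate 2) to 0.35 (without MG1 replicate 1) for Cx3cl1, and -0.47 to 0.20 for Cx3cl1 in epithelial and tumor cells on the same libraries. Cxcl10 in MT2 against MG2 ran from -0.43 (without MG2 replicate 2; -0.21 without MT2 replicate 1) to 1.29 (without MG2 replicate 1) over all cells, and from -0.37 (without MG2 replicate 2; -0.03 without MT2 replicate 1) to 2.33 (without MG2 replicate 1) in epithelial and tumor cells. Cxcl5 in the difference between mice ran from -1.01 to 4.90, the highest without MG1 replicate 1. In fibroblast-like cells Cxcl2 in MT1 ran from -1.27 to 0.65 (without MG1 replicates 1 and 2), Cxcl10 in MT1 from -0.16 (without MT1 replicate 3) to 2.35 (without MG1 replicate 1) and Cxcl9 in MT2 from -1.92 to 3.64 (without MG2 replicates 2 and 1). Cxcl10 in MT2 over all cells was -0.11 with a replicate block, and, with the mouse as replicate, Cxcl9 was 0.30 without the mouse block and 0.37 in epithelial and tumor cells. The cause was not tested.

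In fibroblast-like cells, fitting only the groups compared called 858 of the 1827 genes that then passed the filter, and 1 of 5 chemokines tested, in MT1; leaving out a library gave 393 to 1101 genes and 3 to 5 chemokines in MT2, the lowest without MG2 replicate 2 (425 without MG2 replicate 1). With the mouse as replicate, DESeq2 called 1303 genes and 4 chemokines, against 0 by edgeR. The source share of Cxcl16 in Grem1-Ptgs2 cells of MT2 was 47.2% at resolution 1.0 and 47.3% without the highest doublet scores.

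Titles of 2 libraries each of MG2 and MT2 share numbers, with no source for a pairing; same-numbered libraries deviated together at r = 0.08 over all cells and 0.09 over epithelial and tumor cells. With the replicate block 10060 and 10181 genes were called, and Cxcl12 in MT2 over all cells gained a call (0.40, adjusted p = 0.0175). That change was called in 7 of its 18 alternative settings, the block among them. Depth limits Cxcl3, Cxcl5 and Cxcl9 where a group held 10 UMIs or fewer.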

Other observations

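The other CXC ligands in the table were read over all cells in the same fits, 2 of 6 higher and 3 lower in each tumor, where 61.9% of all genes in MT1 and 65.6% in MT2 were called. Cxcl11, the third Cxcr3 ligand, gave 386 UMIs in MT1 and 0 in the other groups, where 3 counts would have been 0.792 CPM in MG1, 0.347 in MG2 and 0.0704 in MT2. In MT1 it lay in the Sfrp1-Igfbp5 cells (22.9 CPM) and the Tnfrsf11b-Ccl20 cells (25.1 CPM), as Cxcl10 did. Ppbp, an ELR chemokine best known from platelets, gave 39 and 41 UMIs in the tumors and 0 in the glands.

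Cxcl13, which attracts B cells, was a gland fibroblast gene: it stood at 1712 CPM in the fibroblast-like cells of MG1 and 427 in those of MG2. Over all cells it fell by 9.11 ± 0.68 (log2, SE, edgeR) in MT1, from 238 to 0.751 CPM, and was called lower in MT2, with 201 UMIs in MG2 and 0 in MT2. Cxcl15, a chemokine of epithelia, stood at 455 and 168 CPM in the hormone-sensing-like cells of MG1 and MG2 and at 799 in the 48 cells of that class in MT1. Over all cells it fell by 4.71 ± 0.42 in MT1 and was called lower in MT2, with 644 UMIs in MG2 and 0 in MT2. Cxcl17 fell by 3.19 ± 0.44 in MT1 and fell by 8.30 ± 0.49 in MT2, where 4 UMIs were counted. Pf4, a chemokine of platelets and macrophages, gave 236 UMIs in MT2 and 0 to 10 in each of the other groups.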
